A study of Drosophila melanogaster with 3 samples.

Results

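Juvenile hormone is a sesquiterpenoid that insects make in the corpora allata, a gland near the brain, and that holds larvae in their larval state. It is carried in the haemolymph by binding proteins, is broken down by an esterase and by epoxide hydrolases, and acts through the bHLH-PAS receptors Met and gce, which induce the zinc finger gene Kr-h1. Falling hormone levels let metamorphosis proceed, and in the fly the hormone rises again around adult emergence. The 10 genes described here were Jhbp11, Jhbp13, Met, gce, Kr-h1, Jheh1, Jheh2, Jheh3, Jhe and jhamt. Of these, 8 had a probe set assigned to them alone, among 11981 genes measured in all, and 9 probe sets read them, since gce had a pair. Jheh1 and Jheh3 were not analysed here.

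The choice of genes used the data in part. Jhbp13 was chosen on its high signal and Jhbp11 on its variation between the same arrays. Their values are therefore given below as descriptions with no test result, although both were in the fit of all genes. The other 6 measured genes, Met, gce, Kr-h1, Jheh2, Jhe and jhamt, were chosen by their known roles.

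The samples were wings dissected from pupae of the wild-type strain Oregon R at about 80 h after puparium formation, from flies kept at 25 C, with no genetic change or treatment. The adult cuticle is being laid down and tanned at this age, which was judged by eye from wing pigmentation and is therefore approximate. Each of 3 biological replicates was RNA from a batch of 40 flies on 1 Affymetrix array, and no contrast between conditions exists. Each array was instead set against a reference level from organs other than the wing, the 95th percentile of 84 odorant receptor, eggshell and accessory gland genes, which was 93.1, 105.7 and 96.0 signal units on replicates 1, 2 and 3. A gene was called above it by a one-sided limma test at an adjusted p under 0.05, and 5532 of the 11981 genes (46.2%) were called. Differences below are log2 signal minus this level on the same array. Probes differ in their response, so these differences show presence against the reference and not which transcript was more abundant.

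The wing origin of the samples comes from their labels, and the marker calls given here do not test it. The marker lists were chosen with earlier results of these data known. All 12 measured wing epidermis markers, among them ap, vg, nub, Ddc and Cpr64Aa, were called above the reference. Markers of other cells were called in part, where 46.2% of all genes were called. The counts were 4 of 7 for fat body, 2 of 7 for haemocytes, 2 of 3 for trachea and 2 of 6 for neurons. They were 4 of 4 for glia and 3 of 5 for muscle. On lists this short, neither a share near that of all genes nor the full share of glia shows that a cell type was present. The median difference was 4.68 for glia markers and 4.75 for wing epidermis markers. None of 6 genes of the ring gland, an endocrine organ, was called by limma (dib, sad, spok, nvd, sro and Akh). The share of all genes was 46.2%, and 0 of the 6 had an unadjusted p under 0.05. This list holds none of the juvenile hormone synthesis genes, which are given below. In whole dissected wings, fewer cells of a type and less RNA per cell cannot be told apart.

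Hormone carriers come first. Jhbp13, also known as CG5945, encodes a protein with the juvenile hormone binding domain of the takeout family, which holds small secreted carriers of hydrophobic ligands. Its gene lies on chromosome arm 2L next to Jhbp14 and overlaps the antisense RNA gene asRNA:CR46479. Its signal was 48387, 46425 and 41748 on replicates 1, 2 and 3. The arrays lay close together, with the highest signal 1.16 times the lowest. The mean difference from the reference was 8.86 ± 0.14 (SD, n = 3), a value that the choice of the gene already used.

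Jhbp11, also known as CG17189, belongs to the same family and lies on 3R. Its signal was 1057 on replicate 1, 731 on replicate 2 and 3255 on replicate 3. Replicate 3 stood apart from the other arrays, at 4.45 times replicate 2, while every array lay above its reference level. The SD of 1.12 log2 units was larger than that of 825 of the 826 genes whose mean signal lay within 0.5 log2 units. Among the 5532 called genes, 5 genes other than Jhbp11 had an SD at least as large. On replicate 3, 4 others rose at least as far against their own mean. The choice of Jhbp11 already used this variation, so these ranks are descriptions only. The mean difference from the reference was 3.79 ± 1.17 (SD, n = 3). Without replicate 3 it was 3.15 and its SD fell to 0.51, so a single array sets most of this spread.

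**Figure D1:**
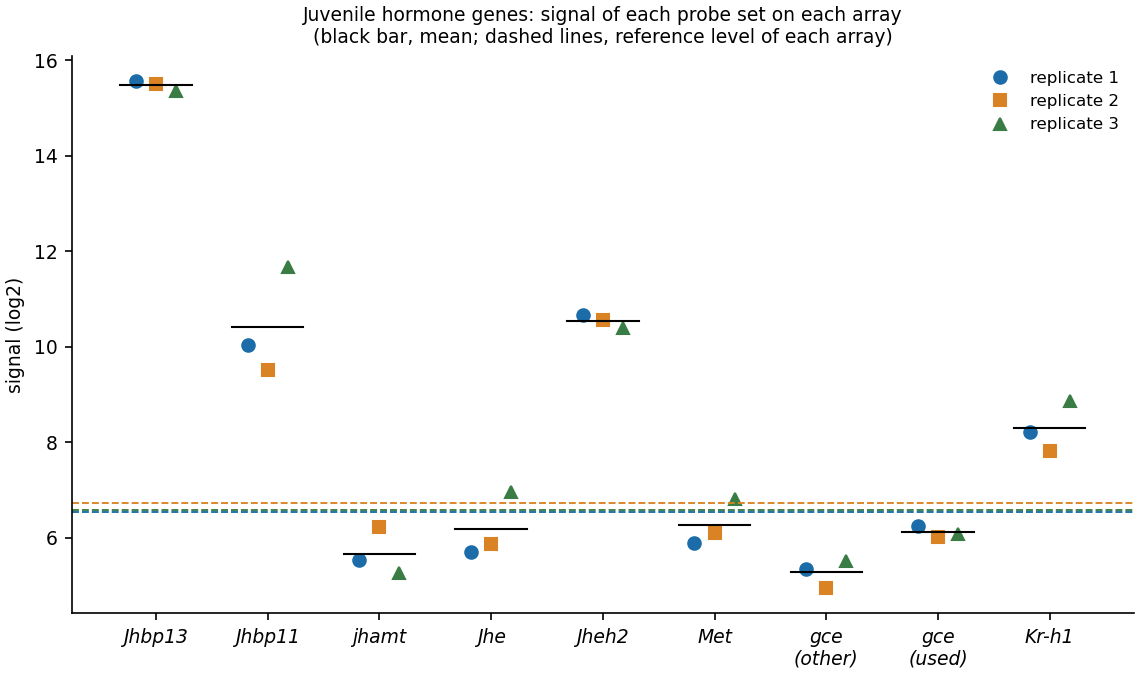
Signal on the log2 scale (y) of each probe set of the 8 measured juvenile hormone genes (x) on replicates 1 to 3, with the mean as a black bar and the reference level of each array as a dashed line. Jhbp13, Jhbp11, Jheh2 and Kr-h1 lie above the lines on every array, and gce and jhamt lie below them on every array.

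Markers of other cells were set beside Jhbp11 as the summed signal of each list, in which bright markers weigh most. The summed signal of the fat body list was 1633, 1938 and 1598 on replicates 1, 2 and 3, and that of the haemocyte list was 3979, 4898 and 4435. The neuron list was at 1693, 1800 and 1652, and these 3 lists were highest on replicate 2. The glia list, at 19236, 20574 and 20774, the muscle list, at 1405, 1138 and 1583, and the trachea list, at 12491, 11798 and 13609, were highest on replicate 3. Single markers highest on replicate 3 numbered 2 of 7 for fat body, 4 of 7 for haemocytes and 1 of 6 for neurons. They numbered 1 of 4 for glia, 4 of 5 for muscle and 2 of 3 for trachea, against 24.8% of all genes. The only such neuron gene was elav, at 7.52, 6.98 and 8.39 log2 units. No marker was at a signal of 0, and the part of these cells in the signal of Jhbp11 was not tested.

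Genes that resembled Jhbp11 from array to array were found by the root mean square difference of the log2 deviations from each gene's own mean, over 3 arrays and among the called genes. The closest was e (ebony), the enzyme that joins dopamine to beta-alanine in cuticle tanning, at a root mean square difference of 0.05, with signals of 3086, 2083 and 10056. Next came CG13082 at 0.10, out at 0.11, the carbonic anhydrase gene CAH1 at 0.14 and slow at 0.14. All 5 were highest on replicate 3 and lowest on replicate 2, as the likeness to Jhbp11 requires. Arrays shared by all genes are the only points in this measure, and 3 of them are few.

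**Figure D2:**
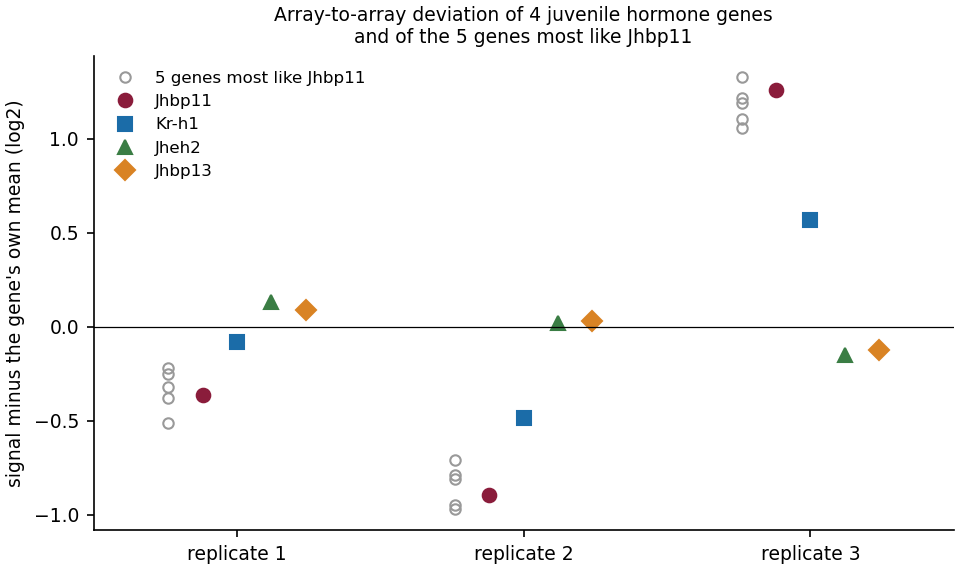
Log2 signal minus the gene's own mean (y) on each array (x) for Jhbp11, Kr-h1, Jheh2 and Jhbp13 and, as open grey circles, for the 5 genes most like Jhbp11. Jhbp11 lies 1.26 above its mean on replicate 3 and Kr-h1 0.57, while Jheh2 and Jhbp13 lie 0.15 and 0.12 below theirs.

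The wider takeout family held both genes called above the reference and genes not called. Of 15 named family genes 12 were measured, and of the 10 not chosen on their values 6 were called above the reference (60%, against 46.2% of all genes). The median difference of these 10 was 1.69, against 0.20 over all genes. Jhbp1 was read at 12.96, 12.88 and 13.01 log2 units on replicates 1, 2 and 3, a mean difference of 6.33 ± 0.15 (SD, n = 3; limma adjusted p = 8.2e-05). Jhbp14, the neighbour of Jhbp13, was read at 10.36, 10.30 and 10.40, a mean difference of 3.74 ± 0.14 (limma adjusted p = 0.00012). The arrays lay close together for both genes.

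Jhbp5 (2.87 ± 0.06, n = 3), Jhbp3 (2.20 ± 0.23), Jhbp12 (1.19 ± 0.11) and Jhbp6 (3.74 ± 0.62) were also called above the reference, where the values are mean differences with their SD. Jhbp6 had a pair of probe sets, which lay 3.74 and 2.66 over the reference. On its brighter probe set Jhbp6 was lower on replicate 2 (9.75) than on replicates 1 and 3 (10.59 and 10.74). Its SD was larger than that of 98.6% of genes with a like mean.

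Jhbp2 (-0.42 ± 0.74), Jhbp4 (-2.88 ± 1.51), Jhbp7 (-3.36 ± 2.36) and Jhbp15 (-2.78 ± 1.46) were not called. Jhbp4 and Jhbp7 were read higher on replicate 3 than on the other arrays, Jhbp7 at 1.91, 1.92 and 5.95 log2 units, but below the reference level on every array. Neighbouring family genes could differ in their calls. Along 3R the order was Jhbp3, Jhbp2 and Jhbp1, with the outer genes called and the middle one not. Jhbp4 and Jhbp5 overlap in the RefSeq annotation, and only Jhbp5 was called. The family's founding gene takeout and Jhbp10 were not analysed here, and Jhbp16 had only a probe set shared with Fer1.

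**Figure D3:**
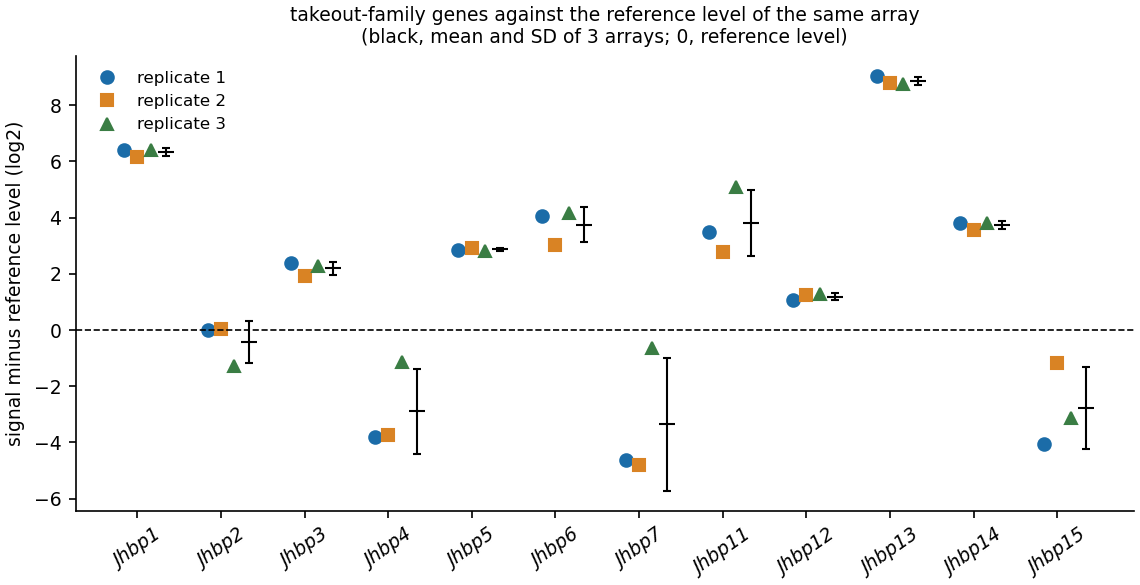
Difference from the array's own reference level in log2 units (y) for 12 takeout-family genes (x), with 1 point per array and the mean and SD of 3 arrays in black. Jhbp13 and Jhbp1 lie 8.86 and 6.33 over the reference, while Jhbp4, Jhbp7 and Jhbp15 lie below it on every array.

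Enzymes of hormone synthesis include those of the general precursor pathway and those of the last steps. The gene jhamt encodes the methyltransferase of late juvenile hormone synthesis and is known for its activity in the corpora allata. Its signal was 46.2, 74.8 and 38.1 on replicates 1, 2 and 3, below the reference level on every array. Replicate 2 was the highest, at 1.96 times replicate 3. The mean difference was -0.95 ± 0.42 (SD, n = 3; limma adjusted p = 1.0), with a 95% interval from -1.59 to -0.30. Cyp6g2, a cytochrome P450 linked to hormone synthesis in the corpora allata of the fly, was not called either (-1.69 ± 1.36).

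Of the 6 measured mevalonate pathway enzymes, which make the farnesyl precursor and serve many cells for protein prenylation and other products, 5 were called above the reference, against 46.2% of all genes. Hmgs, the synthase of HMG-CoA, lay 4.20 ± 0.04 over it (SD, n = 3), and Fpps, farnesyl diphosphate synthase, lay 3.82 ± 0.26 over it. The thiolase gene Acat2 (2.89 ± 0.12), the isomerase gene Idi (2.18 ± 0.27) and the kinase gene Pmvk (0.92 ± 0.50) were called as well, and the decarboxylase gene Mvd (0.36 ± 0.56; limma adjusted p = 0.267) was not. The call of Pmvk (limma adjusted p = 0.0293) was lost without replicate 1 (adjusted p = 0.119) and without replicate 3 (adjusted p = 0.109), with differences of 0.75 and 0.81. It was also lost at smaller differences under other reference levels, at 0.28 against the 99th percentile (adjusted p = 0.355) and at 0.49 against a level from eggshell and accessory gland genes only (adjusted p = 0.159). The only Hmgs probe set is of the _s_at type, whose probes may also match transcripts of other genes.

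Allatostatins are neuropeptides named for their inhibition of the corpora allata in other insects. AstA, its receptor genes AstA-R1 and AstA-R2, and AstC-R2 were not analysed here. The 5 measured genes for these peptides and their receptors were AstC, AstC-R1, AstCC, Mip and SPR. Of these, limma called 0 above the reference, against 46.2% of all genes, with 0 at an unadjusted p under 0.05. Their mean differences ran from -4.46 to -1.13, with a median of -2.29, against 0.20 over all genes.

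Breakdown enzymes differed in their calls. Jheh2 encodes an epoxide hydrolase of the group that opens the epoxide ring of the hormone, and its gene lies on 2R between Jheh1 and Jheh3. Its signal was 1627, 1505 and 1337 on replicates 1, 2 and 3. The arrays lay close together, at 1.22 times from lowest to highest. The mean difference was 3.92 ± 0.18 (SD, n = 3; limma adjusted p = 0.00012), with a 95% interval from 3.50 to 4.34. The SD of its log2 signal, 0.14, was near the middle for genes of like mean, larger than that of 53.1% of them.

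Jhe encodes the esterase that cleaves the methyl ester of the hormone. Its signal was 52.4 on replicate 1, 58.1 on replicate 2 and 123.7 on replicate 3. It lay under the reference level on the first pair of arrays and over it on replicate 3. The mean difference was -0.44 ± 0.70 (SD, n = 3; limma adjusted p = 1.0), and its 95% interval from -1.41 to 0.52 leaves its side of the reference unsettled. The adjacent duplicate gene Jhedup was read at -2.47 ± 1.17 against the reference and was not called.

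The receptor genes were not called. Met, the Methoprene-tolerant receptor, was read at 59.3, 68.8 and 112.0 signal units on replicates 1, 2 and 3. It exceeded the reference level on replicate 3 alone. The mean difference was -0.35 ± 0.50 (SD, n = 3; limma adjusted p = 1.0), with a 95% interval from -1.08 to 0.38.

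The paralog gce (germ cell-expressed), which lies like Met on the X chromosome and can replace it in part, was read by a pair of probe sets. The brighter gave 76.2, 64.5 and 67.5 signal units on replicates 1, 2 and 3, and the dimmer gave 40.8, 30.9 and 45.9. Both lay under the reference level on every array. The brighter had a mean difference of -0.50 ± 0.21 (SD, n = 3; limma adjusted p = 1.0), with a 95% interval from -0.95 to -0.06, and the dimmer one of -1.34 ± 0.38. A signal under the reference does not show that a transcript is absent, only that this array did not separate it from genes of other organs.

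Genes that work with the receptors were called in all 5 measured cases, against 46.2% of all genes. They were tai, the bHLH-PAS coactivator that pairs with the receptors (1.97 ± 0.11, n = 3; limma adjusted p = 0.00047), Nup358, a nuclear pore protein of receptor import (2.40 ± 0.32), and ftz-f1, a nuclear receptor that interacts with Met and gce (5.71 ± 0.07). The further genes were usp, the partner of the ecdysone receptor (2.23 ± 0.14), and Fkbp39, an immunophilin reported to bind hormone response elements (1.07 ± 0.11). These proteins also act outside hormone signalling. A second ftz-f1 probe set lay at -0.12 against the reference, so its call rests on the brighter one.

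Kr-h1 encodes the zinc finger repressor that juvenile hormone induces and that holds back metamorphosis, and it also acts in neurons. Its signal was 296.8 on replicate 1, 224.3 on replicate 2 and 464.3 on replicate 3. Every array lay above its reference level, with replicate 3 at 2.07 times replicate 2. The mean difference was 1.68 ± 0.59 (SD, n = 3; limma adjusted p = 0.0076), with a 95% interval from 0.84 to 2.52. The call held without any 1 array, with differences from 1.38 to 1.97 and adjusted p from 0.0131 to 0.0441. The SD of its log2 signal, 0.53, was larger than that of 97.2% of the 1366 genes of like mean. The gene overlaps CG45075 in the RefSeq annotation.

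Of the 6 members chosen by function, Kr-h1 and Jheh2 were thus the 2 called above the reference (33.3%, against 46.2% of all genes). The median difference of the 6 was -0.40, against 0.20 over all genes. Of the same 6 members, 3 had their highest signal on replicate 3, namely Kr-h1, Met and Jhe, where 24.8% of all genes had theirs.

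**Figure D4:**
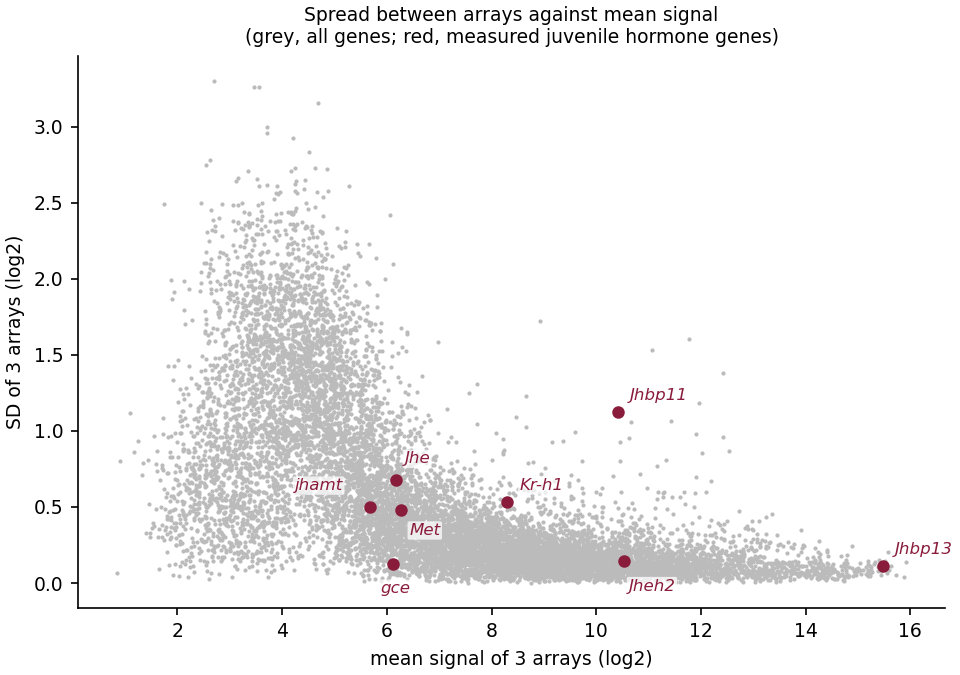
SD over 3 arrays (y, log2) against mean log2 signal (x) for all 11981 genes in grey and the 8 measured juvenile hormone genes in red. Jhbp11, which was chosen on this spread, lies far over genes of like mean with an SD of 1.12. Kr-h1, at 0.53, lies near the upper edge of genes of like mean. Jheh2 and Jhbp13, at 0.14 and 0.11, lie among theirs.

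Other genes of the hormone response, including those that act against Kr-h1 in the choice between life stages, were mostly called. With Kr-h1 counted, 6 of 7 were above the reference, with a median difference of 1.19, against 46.2% and a median of 0.20 for all genes. The calls of br, mnd and JhI-26 among them depended on the settings given below. Eip93F, the adult specifier that Kr-h1 represses, was read at 10.29, 10.36 and 11.18 log2 units on replicates 1, 2 and 3, a mean difference of 3.99 ± 0.52 (SD, n = 3; limma adjusted p = 0.00045). Like Kr-h1 it was highest on replicate 3, and its SD was larger than that of 98.1% of genes of like mean. A second Eip93F probe set lay at -1.30 against the reference.

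The pupal specifier br was called on 1 of its 5 probe sets, at 1.19 ± 0.19 over the reference, while the other probe sets lay from -0.67 to -0.12, and with the mean of its probe sets it lay at -0.036. JhI-21, an amino acid transporter subunit first found as a hormone-inducible transcript, lay 6.39 ± 0.25 over the reference (SD, n = 3; limma adjusted p = 8.6e-05). Its relative mnd (0.67 ± 0.09; limma adjusted p = 0.0104) and JhI-26 (0.92 ± 0.18; limma adjusted p = 0.0059) were called nearer to the level. The calls of mnd and JhI-26 were lost with the 99th percentile as reference, at adjusted p = 0.971 and 0.110. The call of mnd was also lost against a level from eggshell and accessory gland genes only (0.24, adjusted p = 0.221). Without replicate 1 and without replicate 3 its difference was 0.69 and 0.62, and its adjusted p was 0.0501 and 0.0709. RNaseZ, also named JhI-1, was not called (0.29 ± 0.26), although it lay above the level on every array. Against a level from odorant receptors alone it was called (0.47, limma adjusted p = 0.0471).

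**Figure D5:**
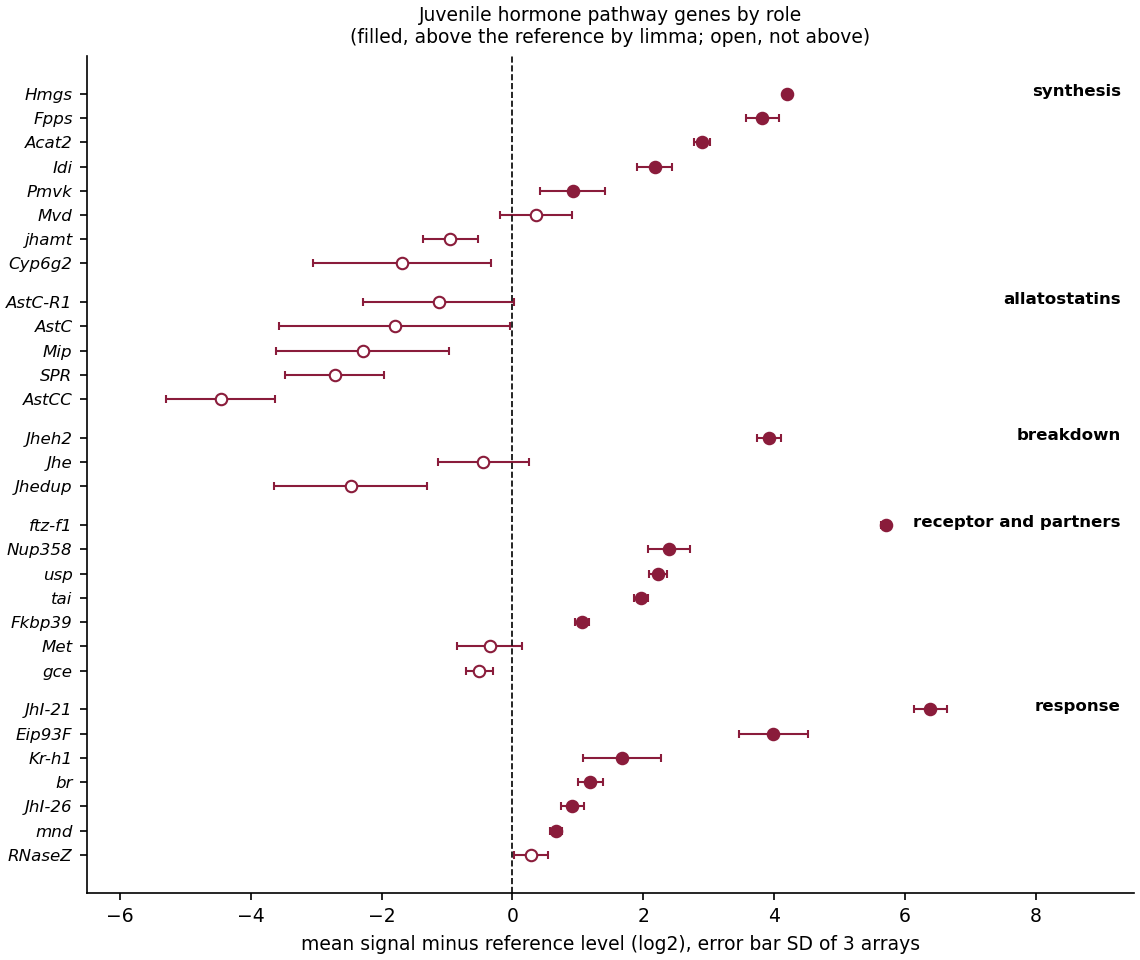
Mean log2 signal minus the reference level (x), with the SD of 3 arrays as error bar, for the measured genes of each role (y), filled where limma called them above the reference and open where it did not. Receptor partners and response genes lie mostly to the right of 0, and Met, gce, jhamt and the 5 measured allatostatin genes lie to its left.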

How the data were processed

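The deposited values were probe set signal intensity values on a linear scale for 18952 probe sets on 3 arrays, named MAS5 and RMA without roles in the submitters' processing notes; every array had a trimmed mean of 500.0 after 2% was removed at each end. The genome build is not given in the sources used here. Gene names came from GEO's platform annotation, in which 13646 probe sets held 1 gene symbol, 402 several and none for 4721. Where a gene had several, the one of highest mean stood for it. Signals were used as log2 values with no further normalization, and between arrays log2 signals correlated at 0.91 to 0.92 across probe sets, which are not independent.

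limma 3.58.1 in R 4.3.3 (lmFit, eBayes) tested each gene's log2 signal minus the 95th percentile of 84 reference genes (56 odorant receptors, 28 eggshell or accessory gland genes) on the same array, one-sided, with Benjamini-Hochberg adjustment over 11981 genes. The fit was tested on simulated data. The uncertainty of the reference level is not in the test. The 95% intervals are 2-sided limma intervals. Text names every member, every measured gene of the juvenile hormone lists and cell markers where a call needs them. It also names the 5 genes most like Jhbp11, the measured member of largest SD, which was chosen on that spread. Members and lists were chosen with earlier results of these data known. Neighbours and names follow RefSeq Release 6. Python 3.11.15 and pandas 2.3.3 handled the tables. The number of arrays limits the precision.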

Additional observations from a re-analysis of the deposited data

Results flagged for a closer look

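A probe set assigned to both HSPC300 and Jhbp13 names no single gene and entered no comparison above. Its signal was 461.4, 525.6 and 555.3 on replicates 1, 2 and 3, a mean of 2.39 log2 units over the reference, and it lay above the level on every array. The probe set of Jhbp13 alone was at 8.86 over the reference. Which of the genes gave the shared signal was not tested.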

How the results depend on the processing

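The 2 calls among the 6 members chosen by function held under all 13 alternatives, as did the count of 6 takeout-family genes, and without any 1 replicate these counts ran from 2 to 2 and from 6 to 6. The count of the 34 wider juvenile hormone genes was 21, from 19 to 21 without any 1 replicate and from 18 with the 99th percentile as reference to 22 with odorant receptors alone. Over the 40 tested genes and 13 alternatives, 501 of 518 values kept their direction and call. Some alternatives could not change a direction. The limma intensity trend and the count of arrays above the level with no model used the main differences. With every probe set on its own, the brightest one still stood for each gene. In these settings only the call could change. Genes near the level turned. With the 99th percentile Mvd lay at -0.29 and RNaseZ at -0.36, with eggshell and accessory gland genes alone they lay at -0.071 and -0.14, br lay at -0.036 with the mean of its probe sets, and Jhbp2 ran from -0.64 to 0.0078 without any 1 replicate, the latter without replicate 3. Jhbp11 and Jhbp13 were in the fit of all genes and in the counts over all genes, but no test result is given for them. Without _s_at and _x_at probe sets 32 of the 34 wider genes were measured. No paired analysis was possible because all arrays belong to 1 group. Causes of these changes were not tested. The intervals of Met and Jhe include the reference level, which limits what can be said of these genes.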
